A study of Mus musculus with 2 samples.

Results

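The platelet-derived growth factor (PDGF) family was followed through the cell types of the young mouse brain. It comprises 4 ligand genes, Pdgfa, Pdgfb, Pdgfc and Pdgfd, and 2 receptor genes, Pdgfra and Pdgfrb. These 6 genes were taken by symbol from the 32285 annotated features, and each matched 1 feature in both libraries. The cells came from brains of mice of the strain given as C57BL/J at postnatal day 10. Both libraries belong to 1 group, for which the labels name no transgene, treatment or control, and they are called library 1 and library 2 after their labels. The series names 6 mice and ties none of them to a library, so the libraries may be technical replicates. The p-values below therefore cannot be read as spread between mice. Each rests on how class differences varied between these 2 libraries. That spread was pooled over the classes of a fit and partly borrowed from other genes, so it is not the spread of 1 gene alone. The labels name the whole organ and no region or sort.

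PDGF ligands are secreted dimers that bind receptor tyrosine kinases of class III, which dimerise and phosphorylate themselves. PDGF-A acts through the alpha receptor, PDGF-B through both receptors, and PDGF-C and PDGF-D are released in a latent form that proteases must cut. In the textbook account of the brain, endothelial PDGF-B holds pericytes on the vessel wall through the beta receptor. PDGF-A made by neurons and astrocytes is described there as a mitogen of oligodendrocyte precursors, which carry the alpha receptor.

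Library 1 held 12978 barcodes with 51452085 unique molecular identifiers (UMIs, counts of single captured molecules), and library 2 held 19508 barcodes with 45532691 UMIs. After quality limits and doublet removal 11992 and 14067 cells remained, at a median of 3426 and 1914 UMIs. Of 30 clusters, 25 were named from fixed markers and merged into 17 classes, each written here with the ending "-like". Cells in unnamed clusters made up 5.50% of library 1 and 36.4% of library 2, most of the latter in clusters of low UMI number, and 90 barcode sequences occurred in both libraries. No class came out as choroid plexus epithelial or myelinating oligodendrocyte. The 6 PDGF genes were kept out of the clustering genes and the markers. Their UMIs over all barcodes numbered 9820 for Pdgfra, 2777 for Pdgfrb, 2352 for Pdgfa, 1280 for Pdgfb, 276 for Pdgfc and 97 for Pdgfd, so the last 2 were measured with the least precision. Levels are UMIs of a gene per 1000000 UMIs of a class (CPM), given for library 1 and then library 2. They are compared between classes for 1 gene and never between genes.

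The identifiers and positions follow GENCODE release M21 on mm10. Pdgfa (ENSMUSG00000025856) lies on the minus strand of chromosome 5 from 138976014 to 138997370, and Pdgfb (ENSMUSG00000000489) on the minus strand of chromosome 15 from 79995874 to 80014977. Pdgfc (ENSMUSG00000028019) lies on the plus strand of chromosome 3 from 81036416 to 81214040. Pdgfd (ENSMUSG00000032006) occupies 6168584 to 6378850 on the plus strand of chromosome 9. Pdgfra (ENSMUSG00000029231) occupies 75152292 to 75198215 on the plus strand of chromosome 5. Pdgfrb has the identifier ENSMUSG00000024620. Each gene but Pdgfrb overlaps an annotated gene on the opposite strand: 6330403L08Rik for Pdgfa, Gm41361 for Pdgfb, Gm16000 for Pdgfc, Ddi1 for Pdgfd and Gm42802 for Pdgfra. The counting rule for such overlaps is not given in the sources used here.

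Promoter sequences from RefSeq on GRCm38.p6 are shown for the precursor receptor Pdgfra and for its ligand Pdgfa, the pair that differed in opposite directions between precursors and differentiating cells. Each window runs from 250 bases before to 50 after a start, 5′ to 3′ on the gene's strand. Capitals mark a GC box, GGGCGG or its reverse complement CCGCCC, in the letters searched.
Pdgfra, chr5:75152001-75152300: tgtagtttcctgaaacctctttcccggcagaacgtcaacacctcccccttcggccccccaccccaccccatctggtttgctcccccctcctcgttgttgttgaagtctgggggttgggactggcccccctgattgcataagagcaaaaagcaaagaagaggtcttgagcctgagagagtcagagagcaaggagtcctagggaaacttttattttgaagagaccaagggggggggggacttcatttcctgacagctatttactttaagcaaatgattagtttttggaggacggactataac
Pdgfa, chr5:138994232-138994531: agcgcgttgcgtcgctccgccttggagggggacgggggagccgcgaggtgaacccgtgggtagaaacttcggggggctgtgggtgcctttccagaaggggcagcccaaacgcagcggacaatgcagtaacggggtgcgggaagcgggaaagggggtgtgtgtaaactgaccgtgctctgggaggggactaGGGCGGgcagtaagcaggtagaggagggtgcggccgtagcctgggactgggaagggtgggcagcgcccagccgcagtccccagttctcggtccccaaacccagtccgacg
Pdgfa, chr5:138994895-138995194: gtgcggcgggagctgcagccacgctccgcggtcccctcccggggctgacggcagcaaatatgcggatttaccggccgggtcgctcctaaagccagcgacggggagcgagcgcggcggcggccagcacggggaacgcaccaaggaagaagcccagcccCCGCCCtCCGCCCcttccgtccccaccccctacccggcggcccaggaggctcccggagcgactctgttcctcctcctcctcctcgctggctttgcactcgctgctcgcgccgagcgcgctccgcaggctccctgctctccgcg
The Pdgfra window was 51% G and C, held 2 E-boxes (CANNTG) and no GC box. RefSeq gave Pdgfa 2 starts, with 1 GC box in the first window and 2 in the second, at 67% and 73.3% G and C. The median over 32851 mouse promoter windows was 52.7% G and C, and 35.7% of them held a GC box on either strand and 72.3% an E-box. The element TATAAA, present in 13.6% of windows, was in none of the 3 shown, and ACAAT, the core of SOX factor motifs, was in the first Pdgfa window and in 31.0% of all. A match to letters is a description and not a bound site. The libraries read only the 3′ end of a transcript, so UMIs of the 2 Pdgfa starts could not be told apart.

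Among the ligands, Pdgfb was high in endothelial-like cells, which line the vessels. The level there was 257 CPM in library 1 (95% exact Poisson interval 222 to 296, covering counting error only) and 214 CPM in library 2 (181 to 250), a mean of 235 ± 30.5 (SD, n = 2). Both values stood above those of every other class in the same library. Microglia-like cells followed with 96.4 and 53.4 CPM (74.9 ± 30.4, n = 2). Cajal-Retzius cell-like cells, early neurons of the cortical surface that secrete reelin, had 57.6 and 59.0 CPM (58.3 ± 0.948, n = 2), with 15 and 40 UMIs. In the other 10 classes with at least 40 cells in each library, Pdgfb lay between 0 and 10.8 CPM. Excitatory neuron-like cells had no UMI in either library, where the exact Poisson interval reaches up to 0.932 and 1.39 CPM.

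Endothelial-like cells averaged 26.8 times the mean of the other 11 classes of the model, which was 8.78 ± 2.20 CPM. The quasi-likelihood F test of edgeR on summed counts listed the Benjamini-Hochberg adjusted p as 0, below the smallest number it stores. Pdgfb and Pdgfd were the 2 members called higher in this class, where a call needs an adjusted p under 0.05, a log2 difference of 1 or more and 1 direction shared by the libraries. Of all 13501 genes tested, 23.7% were called here (14% higher and 9.62% lower). In microglia-like cells Pdgfb was the 1 member called (edgeR adjusted p = 9.0e-165), against 26.9% of all genes in either direction (17.8% higher and 9.11% lower). The fit averages the other classes on the log scale, so its log2 differences (7.60 ± 0.19 SE in endothelial-like and 5.84 ± 0.21 in microglia-like cells) exceed the ratios of mean CPM where many classes sit near 0.

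The share of cells with a Pdgfb UMI was likewise highest in endothelial-like cells. With every cell thinned to 1500 UMIs, 40.2% of endothelial-like cells in library 1 (exact binomial interval 30.6 to 50.4) and 32.0% in library 2 (23.9 to 40.9) held at least 1. In microglia-like cells the share was 11.5% and 7.36%, and in Cajal-Retzius cell-like cells 8.11% and 9.47%, so these 2 classes changed order between the libraries in share as in CPM. Neuroblast-like cells, a class not known for Pdgfb, served as the background for free RNA and had 0% and 0.0381%. Thinning left out 9 and 5 endothelial-like cells. Before thinning the endothelial shares were 72.1% and 60.8%, at a median of 5847 and 4381.5 UMIs, against 1838 and 1864 UMIs in neuroblast-like cells.

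The class sizes differed between the libraries, and so did the class that contributed most Pdgfb. Endothelial-like cells, 0.926% of the kept cells of library 1, held 68.8% of its Pdgfb UMIs. In library 2 they were 0.924% of the cells and held 19.0%, while microglia-like cells, 13.8% of the cells, held 54.1%. The CPM level in microglia-like cells was lower in library 2 than in library 1, so their larger share there went with their number, 1947 cells against 97. Within the class, the cluster led by the stress and immune genes Gdf15, Ifnb1, Cxcl10 and Ccl4 had 97.2 and 56.4 CPM, and the cluster led by Spp1 had 0 and 12.5 CPM from 7 and 200 cells. Another cluster of the class, led by Gm37963, Olfr286, Cx3cr1 and P2ry13, had 10 and 313 cells, and its level is not reported here. These values therefore do not make Pdgfb a trait of the cluster led by stress genes.

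Pdgfd, a ligand that needs a protease to become active, was sparse and again led by endothelial-like cells. These held 14 and 10 UMIs, or 18.5 and 13.8 CPM (16.2 ± 3.36, n = 2). Astrocyte-like cells followed with 4.10 and 5.08 CPM from 23 and 14 UMIs, and the other 10 classes lay between 0 and 3.20 CPM. Both leading classes were called higher than the rest (edgeR adjusted p = 2.5e-18 and 1.3e-10). For astrocyte-like cells 23.5% of all genes were called (20.3% higher and 3.28% lower).

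Pdgfc, the other ligand of this latent kind, was low in every class and led by astrocyte-like cells. Their level was 12.7 CPM from 71 UMIs and 11.6 CPM from 32 UMIs (12.1 ± 0.740, n = 2), 8.37 times the mean of the other classes. Oligodendrocyte precursor-like cells came next with 3.65 and 2.86 CPM, and their range overlapped that of ependymal-like cells at 2.98 ± 0.315 CPM. Endothelial-like cells had no Pdgfc UMI, where the exact Poisson interval reaches up to 4.88 and 5.09 CPM. The astrocyte-like difference passed the test (edgeR adjusted p = 1.5e-21), as did the smaller one of oligodendrocyte precursor-like cells (edgeR adjusted p = 0.013; DESeq2 adjusted p = 0.063, not called), where 19.1% of all genes were called (15.4% higher and 3.72% lower).

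**Figure D1:**
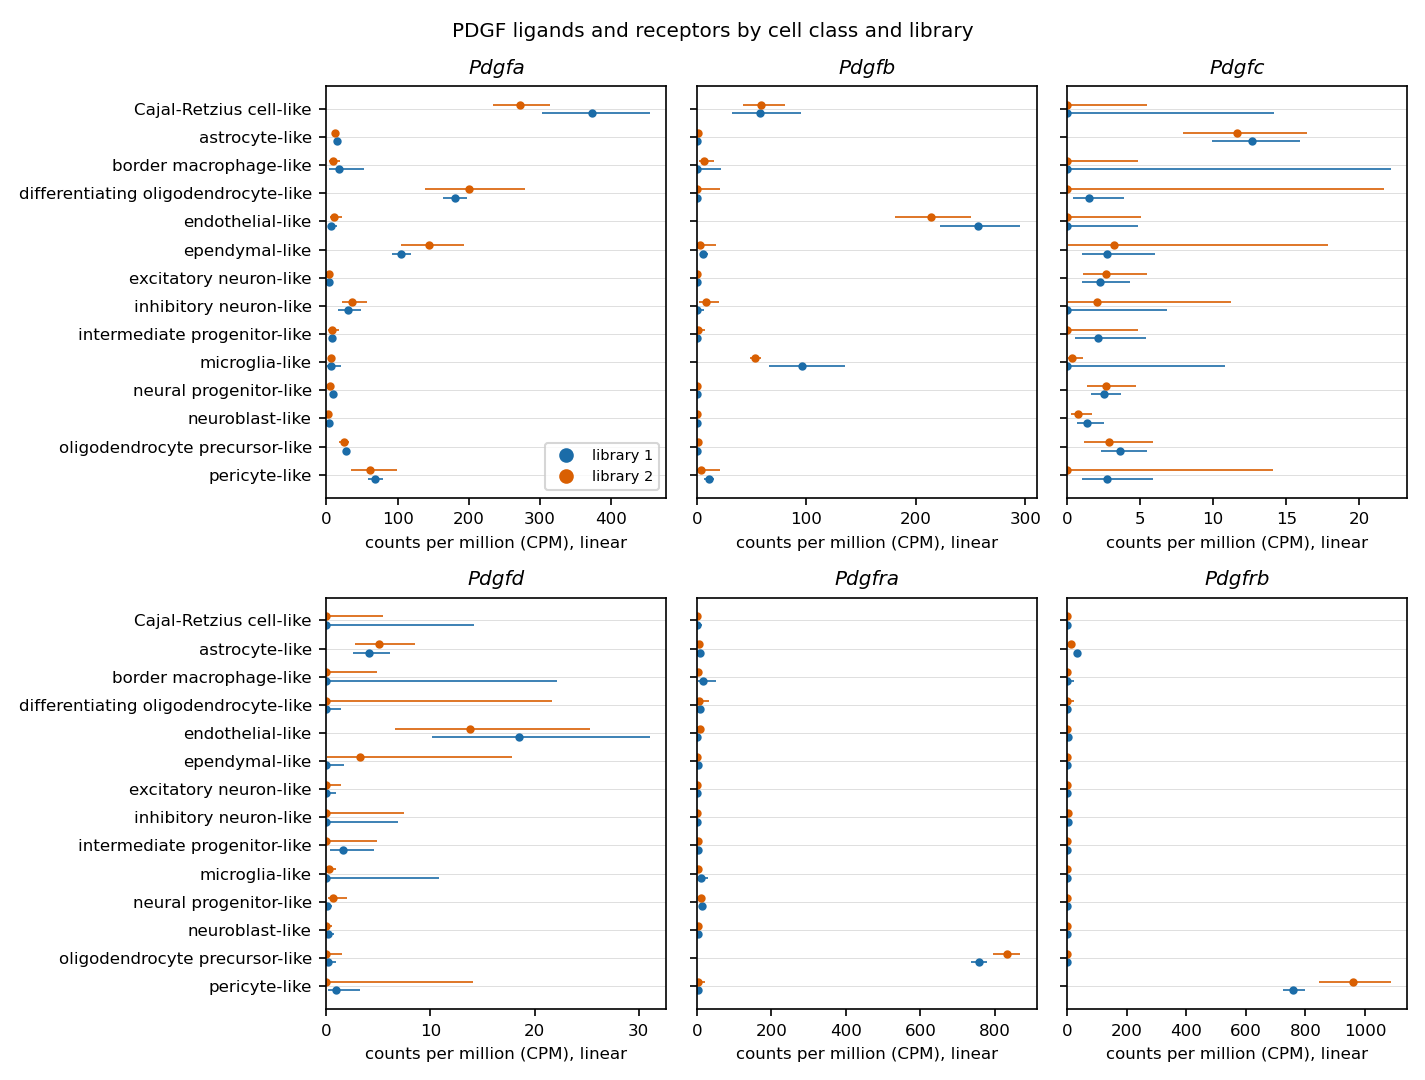
Counts per 1000000 UMIs (CPM, linear axis, each panel on its own scale) of the 6 genes in the 14 classes with at least 20 cells in each library and 100 in all; each point is 1 library and bars are exact Poisson 95% intervals. Pdgfb peaks in endothelial-like cells (257 and 214 CPM), Pdgfrb in pericyte-like cells (760 and 960) and Pdgfra in oligodendrocyte precursor-like cells (757 and 831), while Pdgfa is spread over several classes.

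Pdgfa was the ligand with the widest spread over classes. Cajal-Retzius cell-like cells had the highest level, 373 CPM in library 1 (302 to 455) and 271 CPM in library 2 (233 to 313), a mean of 322 ± 71.7 (n = 2). Differentiating oligodendrocyte-like cells, which have left the precursor state and begun to make myelin genes, had 180 and 200 CPM (190 ± 14.0, n = 2). Ependymal-like cells, the ciliated lining of the ventricles, had 105 and 144 CPM (125 ± 27.8, n = 2). In each library these 3 classes stood in the same order, and no range over the 2 libraries overlapped the next. The counting intervals of neighbours did overlap in library 2, at 233 to 313, 138 to 279 and 105 to 193 CPM. The order of the last 2 did not hold under every setting: the differentiating and ependymal-like means were 118 and 119.5 CPM with called doublets kept, and both 128 CPM at a finer clustering resolution. The Cajal-Retzius cell-like class rests on 37 and 95 cells and the differentiating oligodendrocyte-like class on 344 and 25.

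Below them came pericyte-like cells with 68.3 and 61.2 CPM, inhibitory neuron-like cells with 29.7 and 36.3 CPM from 16 and 18 UMIs, and oligodendrocyte precursor-like cells with 27.6 and 24.1 CPM. Astrocyte-like cells had 14.3 and 12.7 CPM, a range that overlapped border macrophage-like cells (13.6 ± 6.21). Endothelial-like, intermediate progenitor-like, neural progenitor-like and microglia-like cells had means of 8.82, 7.88, 7.02 and 6.26 CPM, and each overlapped its neighbour in that order. Excitatory neuron-like cells had 4.04 and 4.16 CPM, and neuroblast-like cells, the young migrating neurons, had the lowest level of the 12 classes with 2.99 and 2.51 CPM.

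Both neuron classes and astrocyte-like cells, the textbook sources of Pdgfa for precursors, were thus below differentiating oligodendrocyte-like cells in both libraries. The neuron classes also carried markers of young neurons. Excitatory neuron-like cells held neuroblast markers at a sum of 6258 and 6333 CPM, against 1917 and 1890 CPM for their own. Inhibitory neuron-like cells held neuroblast markers at 5887 and 4433 CPM and their own at 1279 and 17292 CPM, so the make-up of that class differed between the libraries. The part of this in the Pdgfa levels was not tested. Excitatory and inhibitory neuron-like cells together were lower than the non-neuronal classes by a log2 difference of -1.06 ± 0.22 (SE; edgeR adjusted p = 7.3e-06), where 31.3% of all genes were called (14.9% lower and 16.4% higher). That difference sat on the limit of 1 and fell just short of it, at -0.97, with DESeq2 size factors and, at -0.95, without a filter on low counts. The 2 neuron classes stood apart from each other, with inhibitory neuron-like cells at 33.0 ± 4.68 and excitatory neuron-like cells at 4.10 ± 0.0813 CPM. Pdgfa in astrocyte-like cells differed from the other classes by -0.10 ± 0.19 on the log2 scale (edgeR adjusted p = 0.716). Cajal-Retzius cell-like cells were a neuron class outside this contrast and reached 8.34 times the mean of the other 13 classes in the wider model described next.

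The 3 leading classes were tested after their values had been seen. Ependymal-like cells were higher by 3.10 ± 0.16 (log2, SE; edgeR adjusted p = 4.5e-80), where 36.5% of all genes were called (27.2% higher and 9.27% lower). The other 2 classes entered a wider model of 14 classes with at least 20 cells in each library and 13659 genes. There Cajal-Retzius cell-like cells were higher in Pdgfa by 3.99 ± 0.16 and differentiating oligodendrocyte-like cells by 3.47 ± 0.14 (edgeR adjusted p = 1.8e-134 and 9.7e-134). Of all genes, 21.6% were called in the first of these 2 classes (14% higher and 7.66% lower) and 18.5% in the second (11.4% and 7.12%). Cajal-Retzius cell-like cells were also called higher in Pdgfb (edgeR adjusted p = 6.1e-40). They held no UMI of Pdgfra, where the exact Poisson interval reaches up to 14.2 and 5.44 CPM.

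At 1500 UMIs per cell, 56.8% and 36.8% of Cajal-Retzius cell-like cells held a Pdgfa UMI, 26.3% and 16.0% of differentiating oligodendrocyte-like cells and 14.2% and 18.8% of ependymal-like cells. Neuroblast-like cells gave 0.396% and 0.267%. Over the kept cells of library 1, differentiating oligodendrocyte-like cells were 2.87% of the cells and held 33.1% of the Pdgfa UMIs, the largest part of any class. In library 2, Cajal-Retzius cell-like cells were 0.675% of the cells and held 26.6%. Unnamed clusters held another 25.2% of the Pdgfa UMIs of library 2.

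On the receiving side of the vessel wall, Pdgfrb was at 760 CPM (724 to 797) and 960 CPM (845 to 1087) in pericyte-like cells, a mean of 860 ± 142 (n = 2). The next class of the 12 was astrocyte-like, at 33.3 and 13.8 CPM. The other 10 classes lay between 0 and 4.04 CPM, and the ranges of neighbours among them overlapped. Pericyte-like cells averaged 299 times the mean of the other classes, and edgeR listed the adjusted p as 0. Pdgfa and Pdgfrb were the 2 members called in this class, both higher, against 21.9% of all genes called (14.6% higher and 7.28% lower).

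At equal depth 66.3% and 78.5% of pericyte-like cells held a Pdgfrb UMI, against 0% and 0.0553% of microglia-like cells. Before thinning the pericyte shares were 90.2% and 92.8%, at a median of 3889.5 and 3674 UMIs, with 3065 and 3672 UMIs in microglia-like cells. The upper limits for 87 and 1807 microglia-like cells were 4.15% and 0.308%.

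Endothelial-like and pericyte-like cells were also compared with each other, the ligand and the receptor side of the wall. Pdgfb was higher in endothelial-like cells (235 ± 30.5 against 7.34 ± 4.97 CPM; edgeR adjusted p = 4.1e-69), where pericyte-like cells held 24 UMIs and 1 UMI. The ratio was 23.7 in library 1 (exact 95% counting interval 15.5 to 37.9) and 55.9 in library 2 (9.88 to 2221). Pdgfrb ran the other way, with 3 and 0 UMIs in endothelial-like cells against 1681 and 251 in pericyte-like cells (edgeR adjusted p = 2.7e-147). Pdgfd was higher in endothelial-like cells, where pericyte-like cells had 2 and 0 UMIs (edgeR adjusted p = 3.3e-05), and Pdgfa was 7.33 times higher in pericyte-like cells (edgeR adjusted p = 1.1e-12). These 4 of 6 members were called, against 18.4% of all genes in either direction (8.3% higher and 10.1% lower in endothelial-like cells).

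The pericyte-like class held smooth muscle-like cells, which a finer clustering, at resolution 2 in place of 1, drew as a cluster of their own led by Acta2, Tagln, Actg2 and Myh11. Pdgfa was at 229 CPM (183 to 283) and 258 CPM (133 to 451) in these 71 and 11 cells. In the remaining 459 and 58 pericyte-like cells, led by Abcc9, Kcnj8, Atp13a5 and Higd1b, it was at 36.3 CPM (28.1 to 46.1) and 18.6 CPM (5.07 to 47.7), so the intervals did not overlap in either library. Pdgfrb was the reverse, at 256 and 323 CPM in smooth muscle-like and at 860 and 1098 CPM in pericyte-like cells, 3.36 and 3.40 times higher in the latter. Thus the ligand and the receptor had opposite orders within the mural cells. These clusters were looked at after the class values were known and carry no test. With stricter quality limits, under which smooth muscle-like cells also formed a class, the difference of Pdgfa in pericyte-like cells from other classes was 0.97 on the log2 scale and no longer called.

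**Figure D2:**
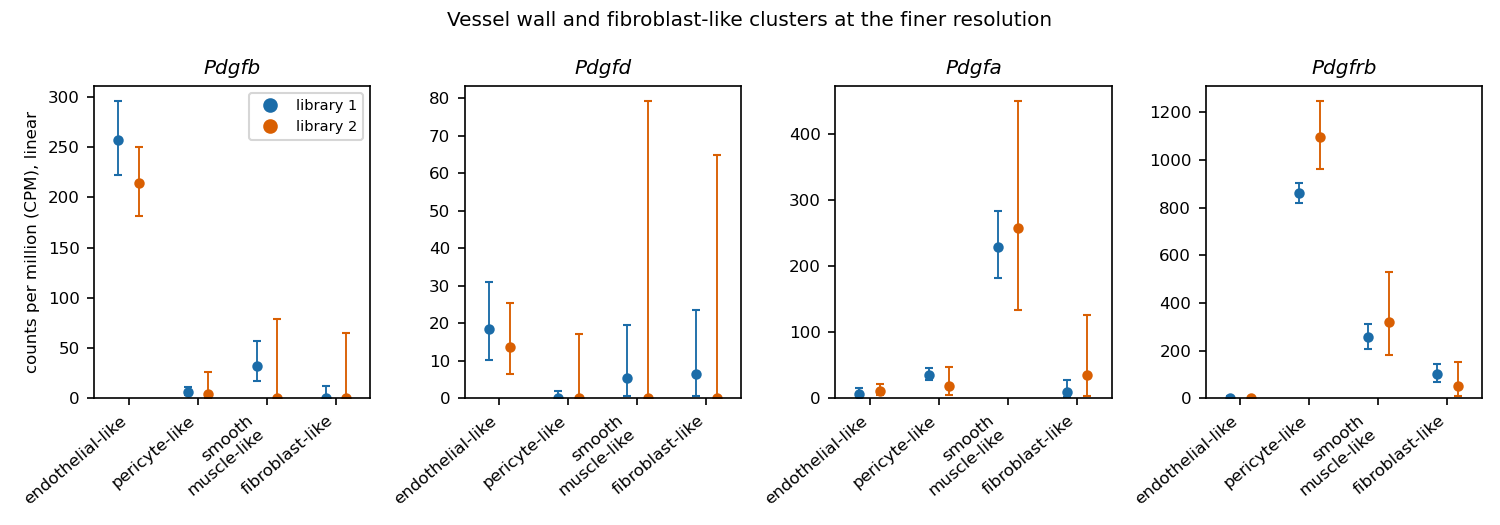
Counts per 1000000 UMIs (CPM, linear axis) of Pdgfb, Pdgfd, Pdgfa and Pdgfrb in 4 clusters of the finer resolution; points are libraries and bars exact Poisson 95% intervals. Pdgfb and Pdgfd are highest in endothelial-like cells in library 1, Pdgfa in smooth muscle-like cells (229 and 258 CPM) and Pdgfrb in pericyte-like cells (860 and 1098), and the 11 smooth muscle-like and 8 fibroblast-like cells of library 2 give wide bars.

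Astrocyte-like cells were called higher in Pdgfrb as well (edgeR adjusted p = 1.2e-65), although their 23.6 ± 13.8 CPM stood below the plain mean of the other classes, 78.9 ± 12.7, which pericyte-like cells raise. The level differed between the 2 clusters of the class. In the cluster led by Ttr, Crym, Hgf and Fam107a it was 50.5 and 46.2 CPM, and in the cluster led by Myoc, Pla2g3, Aqp4 and Lcat it was 17.5 and 5.47 CPM. The summed level of the 10 pericyte markers in the first cluster was 0.513% and 0.498% of that in pericyte-like cells, where Pdgfrb was at 6.65% and 4.81% of the pericyte level. Of these markers 7 and 5 had a UMI in that cluster, and Abcc9, Anpep and Atp13a5 were at 0 in both libraries. In the second cluster the marker sum was at 0.358% and 0.225% and Pdgfrb at 2.30% and 0.570%. The 2 libraries mixed the clusters in different numbers, 718 and 565 cells in library 1 against 157 and 412 in library 2. The first cluster also held markers of choroid plexus epithelium, which include Ttr, at 7940 and 1072 CPM with 7 and 4 of 7 detected, against 12.3 and 4.56 CPM in the second. Without the first cluster the astrocyte-like Pdgfrb difference was 3.88 in place of 4.95 on the log2 scale and was still called.

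The receptor Pdgfra was highest in the oligodendrocyte precursors. Its level in oligodendrocyte precursor-like cells was 757 CPM (736 to 779) and 831 CPM (796 to 868), a mean of 794 ± 52.4 (n = 2). The other 11 classes of the model lay between 0 and 18.0 CPM, with neural progenitor-like cells at 14.5 and 12.1 CPM, and no value came near the precursors'. The precursors averaged 150 times the mean of the other classes, and the fitted log2 difference was 7.61 ± 0.10 (SE), with the adjusted p listed as 0 by edgeR. Pdgfra and Pdgfc were the 2 members called in this class, both higher, against 19.1% of all genes in either direction, and the Pdgfc call was lost with DESeq2.

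At equal depth 61.7% and 65.2% of oligodendrocyte precursor-like cells held a Pdgfra UMI, and 83.6% and 89.3% did before thinning, at a median of 3878 and 3764.5 UMIs. Microglia-like cells gave 0% and 0.166% at equal depth. Neural progenitor-like cells gave 2.18% and 1.86%, above the microglia-like share of library 2. Precursors held 87.1% of the Pdgfra UMIs in kept cells of library 1 and 65.9% in library 2, where unnamed clusters held 28.9%.

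**Figure D3:**
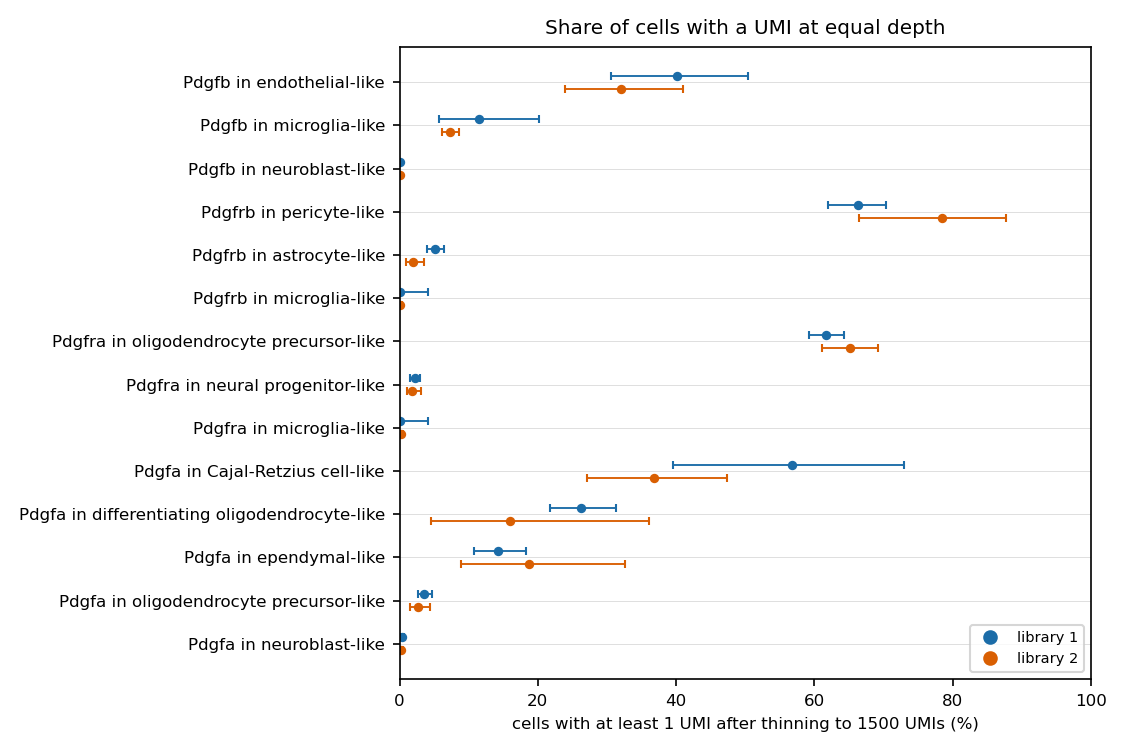
Percent of cells with at least 1 UMI of the gene after thinning each cell to 1500 UMIs; points are libraries and bars exact binomial 95% intervals. Pdgfrb in pericyte-like cells (66.3% and 78.5%) and Pdgfra in oligodendrocyte precursor-like cells (61.7% and 65.2%) lead, and the classes shown as background lie at or near 0.

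The level of Pdgfra was not even within the precursors. At the finer resolution the cluster led by Pnlip, Npas1 and Trnp1 had 1259 and 1401 CPM, 1.73 and 1.82 times the 729 and 770 CPM of the largest cluster, led by Tmem255b. A cluster led by Stk32a and Cntn1 lay between, at 814 and 843 CPM. Outside the class, an unnamed cluster of 515 and 256 cells led by Helt and Bmp3 had 167 and 229 CPM. This cluster held all 10 precursor markers at a sum of 3481 and 3545 CPM, against 6037 and 5736 CPM in the precursors. Astrocyte-like cells (3258 and 3341 CPM) and differentiating oligodendrocyte-like cells (3180 and 3296 CPM) also held all 10 at a similar sum, so this sum does not set the cluster apart from them. Fewer than the required 50% of any marker list stood high in it, so it was given no name.

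Between precursors and differentiating oligodendrocyte-like cells, receptor and ligand had opposite orders. Pdgfra was at 8.71 and 5.88 CPM in differentiating oligodendrocyte-like cells, from 23 UMIs and 1 UMI. The ratio of precursors to this class was 86.9 in library 1 (exact 95% counting interval 57.9 to 137) and 141 in library 2 (25.4 to 5590). Pdgfa was 7.35 times higher there than in precursors, 190 ± 14.0 against 25.8 ± 2.49 CPM. Because the class had 25 cells in library 2, the comparison was tested in the model of 14 classes, where precursors were higher in Pdgfra by 6.35 ± 0.24 and lower in Pdgfa by -2.97 ± 0.17 (log2, SE; edgeR adjusted p = 4.2e-148 and 2.7e-62). Of all genes, 17.2% were called (11.5% higher and 5.72% lower in precursors). At resolution 2, where the differentiating class held 495 and 58 cells, the Pdgfra difference was smaller and kept its direction (3.89 against 6.60 on a log2 scale of CPM + 1). In the same model the differentiating class had a fitted Pdgfra difference of 1.19 ± 0.49 from the mean of the other classes' logs (edgeR adjusted p = 0.0451), while its plain mean of 7.29 CPM stood below their 65.6 CPM, which precursors raise.

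**Figure D4:**
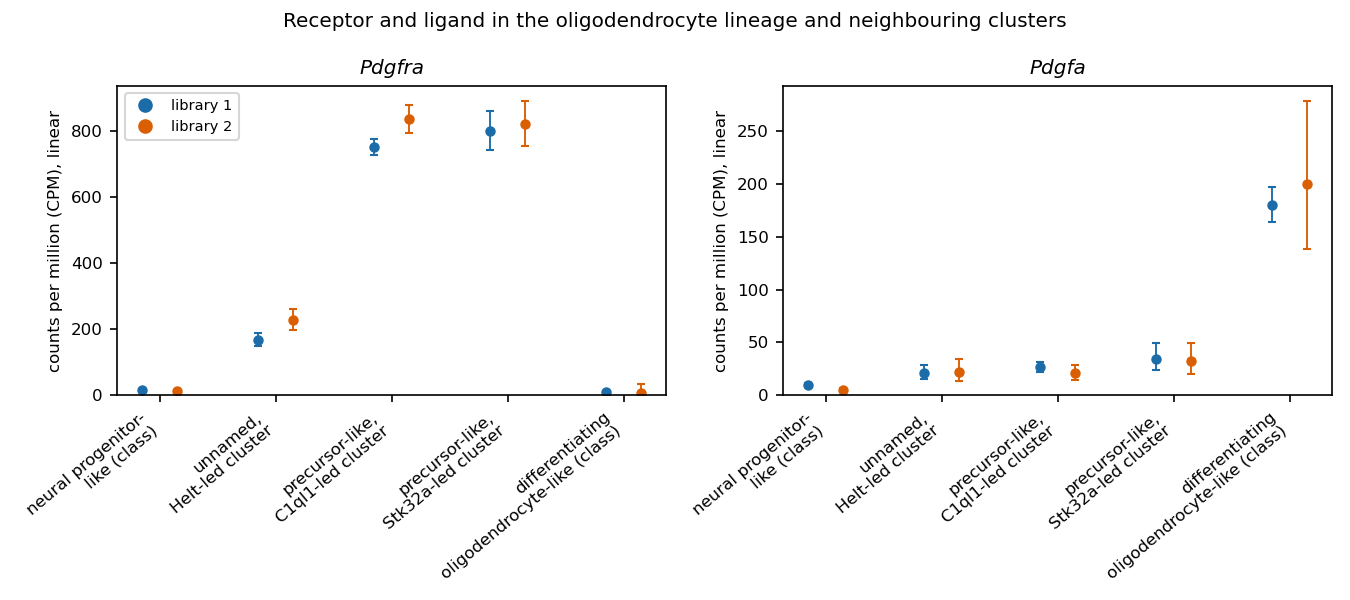
Counts per 1000000 UMIs (CPM, linear axis) of Pdgfra and Pdgfa in neural progenitor-like cells, the unnamed Helt-led cluster, the 2 precursor-like clusters and differentiating oligodendrocyte-like cells; points are libraries and bars exact Poisson 95% intervals, and the order of groups on the axis is not a measured time course. Pdgfra is highest in the precursor-like clusters (750 to 836 CPM) and Pdgfa in the differentiating cells (180 and 200 CPM).

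Single precursors could hold both genes. In library 1, 131 of the 1252 cells with a Pdgfra UMI also had a Pdgfa UMI (10.5%), against 9.80% of the 245 cells without one. In library 2 the shares were 9.30% of 516 and 6.45% of 62. Both receptors occurred together in fibroblast-like cells, where 16 of 44 cells in library 1 and 3 of 8 in library 2 held UMIs of Pdgfra and Pdgfrb. Their levels were 221 and 263 CPM for Pdgfra and 101 and 52.7 CPM for Pdgfrb, the last from 3 UMIs. The summed pericyte markers in fibroblast-like cells were at 13.3% and 14.98% of their level in pericyte-like cells, with 10 and 4 of 10 markers detected, and Pdgfrb at 13.3% and 5.49% of its level there. The part of pericyte RNA in these Pdgfrb UMIs was not tested. By contrast 1 of 1497 precursor-like cells in library 1, none of 578 in library 2, and 5 of 530 and 1 of 69 pericyte-like cells held both.

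Between neural progenitor-like and neuroblast-like cells, 3 members were called and all were lower in neuroblast-like cells. Neuroblast-like cells were lower than neural progenitor-like cells in Pdgfra (3.36 ± 1.41 against 13.3 ± 1.73 CPM; edgeR adjusted p = 1.1e-13), Pdgfa (2.75 ± 0.339 against 7.02 ± 3.61; edgeR adjusted p = 7.7e-07) and Pdgfc (1.05 ± 0.439 against 2.60 ± 0.115; edgeR adjusted p = 0.0249). Here 24% of all genes were called (15.5% lower and 8.43% higher). Each of the 3 calls was lost under at least 1 alternative setting, and all these levels lie under 15 CPM. Excitatory and inhibitory neuron-like cells were also lower than non-neuronal classes in Pdgfb and Pdgfra (edgeR adjusted p = 1.3e-08 and 1.4e-07), and the Pdgfb call did not hold under 3 alternatives. Ependymal-like cells were called lower in Pdgfra, at 1.15 ± 1.63 CPM, and this call was lost under 4 alternatives.

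Some Pdgfra stood outside the classes named so far. Neutrophil or monocyte-like cells of library 2 had 78.9 CPM, but 19 of the 21 UMIs lay in 2 of 82 cells, and the 8 such cells of library 1 had none. Barcodes that failed the quality limits held 79.9 and 52.2 CPM of Pdgfra and 90.6 and 11.4 CPM of Pdgfrb. An unnamed cluster of library 1 led by Myo1c held 126 CPM of Pdgfrb and 86.7 CPM of Pdgfra in 69 cells. The 2 largest low-UMI clusters of library 2 held 137 and 101 CPM of Pdgfra, and their part in the levels of the named classes was not tested.

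Genes that process or bind PDGF and genes of the receptor pathway were followed as 4 lists. Of 13 tested activation and binding partners, 9 were called higher in pericyte-like cells and 0 lower, against 14.6% and 7.28% of all genes. Their median log2 difference in pericyte-like cells was 2.27, against -0.02 over all genes. Cspg4, the NG2 proteoglycan that binds PDGF-AA, was at 382 ± 0.720 CPM there and at 139 ± 5.99 CPM in precursors. Plat, tissue plasminogen activator, which cuts PDGF-C, was at 290 ± 11.9 CPM in pericyte-like, 119 ± 5.18 in endothelial-like and 95.1 ± 0.983 in astrocyte-like cells. Sparc, a matrix protein that binds PDGF-B, and Hspg2, the proteoglycan perlecan, were also among the 9.

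In endothelial-like cells 5 of the 13 partners were higher and 2 lower (median 0.92 against -0.19 over all genes, of which 14% were called higher and 9.62% lower). Sparc was at 3546 ± 374 and Hspg2 at 169 ± 25.8 CPM there. In precursors 5 were higher and 2 lower, with Cspg4 and Lrp1, an endocytic receptor that interacts with PDGF receptors, among the higher and Sparc and Nrp1 among the lower. These precursor counts stand against 15.4% of all genes higher and 3.72% lower. Astrocyte-like cells had 6 higher and 0 lower (median 1.37 against 0.15 over all genes, of which 20.3% were called higher), and microglia-like cells 7 and 0 (median 1.04 against 0.07, with 17.8% higher). In the neuron contrast 0 were higher and 3 lower (median -1.80 against -0.10, with 14.9% lower).

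Of 17 attenuators of receptor signalling, 10 were called higher and 0 lower in pericyte-like cells, against 14.6% and 7.28% of all genes. Their median there was 1.24, against -0.02 over all genes. Sh2b3, an adaptor that dampens receptor kinases, was at 117 ± 34.2 CPM, and the feedback inhibitors Spry4 and Spry1 at 79.2 ± 3.76 and 119 ± 21.5 CPM. Set directly against pericyte-like cells, endothelial-like cells had 0 attenuators higher and 7 lower, among them Spry2 and Spry4. Of all genes, 8.3% were called higher and 10.1% lower in that comparison. Precursors had 3 higher, namely Spry4, Spry2 and Spry1, and 1 lower, Socs3, which is near the 15.4% and 3.72% of all genes called. Against differentiating oligodendrocyte-like cells precursors had 7 higher and 1 lower, where 11.5% and 5.72% of all genes were called. Spry2 was at 329 ± 40.6 CPM in precursors and 33.7 ± 2.16 in the differentiating class, and Spry4 at 59.8 ± 1.89 against 1.14 ± 1.61. The neuron contrast had 1 higher and 8 lower, where 16.4% and 14.9% of all genes were called.

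Of the 30 adaptors and kinases, 6 were called higher and 1 lower in pericyte-like cells, against 14.6% and 7.28% of all genes. Endothelial-like cells had 6 higher and 3 lower (14% and 9.62% of all genes), precursors 3 and 1 (15.4% and 3.72%), and astrocyte-like cells 1 and 0 (20.3% and 3.28%). The counts in the first 3 classes lay near these shares or below them, and the astrocyte-like count lay below. Medians were 0.27, 0.24, -0.19 and 0.02, against -0.02, -0.19, 0.06 and 0.15 over all genes. Fyn, a kinase of the Src family, was higher in precursors than in the other classes at 240 ± 32.8 CPM and reached 1819 ± 146 CPM in the differentiating class. Among 5 tested genes of related class III receptors and ligands, 3 were higher and 0 lower in endothelial-like cells, against 14% and 9.62% of all genes. The 3 were Kitl (196 ± 26.6 CPM), the receptor Kit (53.3 ± 7.07) and Csf1 (16.8 ± 4.30). In pericyte-like cells 3 were higher and 1 lower, against 14.6% and 7.28% of all genes. Il34, a ligand of the receptor Csf1r, was at 143 ± 28.8 CPM there, against 0 in endothelial-like cells, which had no UMI.

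The genes closest to each member in pattern were taken over the 24 sums of 12 classes in 2 libraries, which share libraries and depth, among 9444 or 9445 genes. For Pdgfrb they were Ano1 (Pearson r = 0.96), Heyl, Sntb1, Foxs1 and Prrx2, and for Pdgfra A930009A15Rik (r = 0.87), Tmem255b, Carnmt1, Chrna4 and Il1rap. For Pdgfb they were Def6 (r = 0.89), Crk, Kcnj2, Tmem154 and Serpinb6b. Pdgfa was closest to Col26a1 (r = 0.88), Kazn, Bicc1, Galk1 and Nnmt. Pdgfc was closest to Gm9885 (r = 0.86), Slc7a10, Baalc, Pantr2 and Pmm1, and Pdgfd to Sox7 (r = 0.90), Cdkn2b, Notum, Mal and Htra3.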

How the data were processed

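Cells of mouse brain at postnatal day 10 were profiled with the 3′ v3 droplet kit in 2 libraries. Per the labels' protocols each was sequenced to 700 M reads. The authors deposited raw UMI counts per gene and barcode, and the submitters' processing notes name Cell Ranger 6.1.2 and the build mm10. Which annotation release was counted is not given in the sources used here. All members, gene lists and comparisons were chosen with earlier results of these data known.

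Barcodes were kept from 500 genes upward and with no more than 10% mitochondrial UMIs. Scrublet (expected rate 6%) marked 626 in library 1 and 0 in library 2, where the 898 highest scores were removed instead, a choice made after seeing the data. Counts were scaled to 10000 per cell, and 2000 variable genes without the members, list genes, and ribosomal and mitochondrial genes were reduced to 30 components and clustered (scanpy 1.11.5, Leiden, 15 neighbours, resolution 1). A cluster was named with at least 3 markers and 50% of its list at 2-fold and 20 CPM, and stayed unnamed if its UMI number was under 0.7 of its libraries' median and over 80% of its cells came from 1 library. These limits were set after seeing the data.

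UMI counts were summed per library and class and tested with edgeR 4.0.16 (quasi-likelihood F test, TMM, filterByExpr, library as a block, two-sided, Benjamini-Hochberg). The block was used because classes of 1 library share a suspension. The 12 classes with at least 40 cells in each library shared 1 fit with 11 residual degrees of freedom, and the alternative with 14 classes had 13. These are degrees of the design for each gene. The F test added those that edgeR borrows across genes, so the very small p-values do not rest on the design's degrees alone. Clustering genes and markers were not tested. Genes that follow them remain, so the p-values describe classes as drawn. Members and list genes were barred from clustering, so none of these was left out of the tests for being variable. Named genes were the 6 members, up to 4 called genes per list with the smallest p, and the 5 closest in pattern, at 20 CPM or more; Kit, Csf1, Lrp1, Nrp1, Socs3 and cluster leaders followed the counts they explain. Some genes that the rule names are not reported here. The test was also run on simulated counts with known changes, and its outcome is not reported here. There all classes shared 1 profile and 1 spread, and only well-counted genes were changed, in endothelial-like sums. That run therefore did not cover genes as sparse as Pdgfc and Pdgfd or classes as unlike as these. Intervals cover counting error only. Alternatives were other scaling, DESeq2 1.42.0, no filter, no block, single libraries, and other doublet, quality, clustering and class settings. Without the Ttr-led astrocyte-like cluster and the ependymal, Cajal-Retzius and differentiating oligodendrocyte comparisons were added after seeing the data.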

Additional observations from a re-analysis of the deposited data

How the results depend on the processing

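The 9 counts of genes called kept within 1.5 times of their main value in 88 of 89 alternatives. The exception was neuroblast-like against neural progenitor-like cells, with 2038 genes under stricter quality limits (1000 genes, 5% mitochondrial UMIs) against 3236. Alternatives were run for the 22 called member differences of the model of 12 classes and for the 2 precursor values below, and none reversed. The Cajal-Retzius and differentiating oligodendrocyte differences had no alternative, apart from their Pdgfa levels. Of 261 alternative values of member differences, 17 lost the call. The other 244 kept the call or, in 1 library alone, only the direction. Values of 1 library carry no test. A call already required their direction, so they could neither reverse nor be lost. The lost calls were Pdgfa in pericyte-like cells under stricter quality limits, Pdgfc in precursors with DESeq2, Pdgfa and Pdgfb in the neuron contrast, the 3 genes of the neuroblast comparison, and Pdgfra in ependymal-like cells. Leaving out the library block, which pairs the classes of 1 suspension, gave 3190 genes called in endothelial-like cells against 3194 and changed no call of a member. With 4000 variable genes no inhibitory neuron-like class was found, so the neuron contrast was not run there.

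Precursors differed from differentiating oligodendrocyte-like cells in Pdgfra by 6.60 on the log2 scale of CPM + 1 and in Pdgfa by -2.83. The values were 4.22 and -2.28 with doublets kept, 4.80 and -2.36 with stricter quality limits and 3.89 and -2.29 at resolution 2, and the cause was not tested. In 1 library alone they ran from 6.29 to 6.92 and from -3.00 to -2.66. At resolution 2 the Pdgfc level of astrocyte-like cells was 10.9 CPM and the Pdgfra level of precursors 868 CPM. Single-library levels ran from 105 to 144 CPM for Pdgfa in ependymal-like cells, 214 to 257 for Pdgfb and 13.8 to 18.5 for Pdgfd in endothelial-like cells, 11.6 to 12.7 for Pdgfc in astrocyte-like cells, 757 to 831 for Pdgfra in precursors and 760 to 960 for Pdgfrb in pericyte-like cells.

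Shares of cells rose with thinning depth. At 1000 and 3000 UMIs they were 24.0% and 54.1% for Pdgfb in endothelial-like cells, 61.1% and 81.1% for Pdgfrb in pericyte-like cells, 52.9% and 79.4% for Pdgfra in precursors, and 8.66% and 30.04% for Pdgfa in ependymal-like cells. Depth limits Pdgfc and Pdgfd most, since most classes hold under 10 of their UMIs.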
